A study of Homo sapiens with 3 samples.

Results

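The condensin genes encode the 8 subunits of condensin I and condensin II, the protein complexes that compact chromosomes for cell division. They were read on Affymetrix expression arrays of LNCaP, an established human prostate cancer line, in which the study sought genes that respond to knockdown of the long non-coding RNA HOXD-AS1. Members were all probe sets whose only annotated gene symbol was SMC2, SMC4, NCAPD2, NCAPG, NCAPH, NCAPD3, NCAPG2 or NCAPH2, which gave 26 of the 44988 probe sets with a single symbol and 8 of 18131 genes. The series holds 3 arrays, 1 for a negative control siRNA (the control) and 1 for each of 2 siRNAs against HOXD-AS1 (siRNA 1 and siRNA 2), and in all of them the cells had received 75 nM siRNA by lipid transfection, in phenol red-free serum medium, and were taken at 48 h. With 1 array per group no difference has a replicate check and no test of a condition was possible. The labels list all 3 samples under the cell line LNCaP but name their sources LNCaP, LNCaP-Bic and LNCaP-AI in the order control, siRNA 1, siRNA 2, so a difference between cells of these names cannot be told apart from a difference between siRNAs. They give an inhibition rate of 0.23 for siRNA 1 and 0.25 for siRNA 2, relative to 1 for the control, without saying how it was obtained. A further label places the target points of these siRNAs, 588 and 1290, on the coding sequence of another gene, WDR5, so which RNA the rates refer to is unclear, and HOXD-AS1 itself was not analysed here.

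Condensins are rings built on a pair of ATPase arms, SMC2 and SMC4, which both complexes share. A kleisin subunit closes the ring (NCAPH in condensin I, NCAPH2 in condensin II) and carries a pair of HEAT-repeat subunits, NCAPD2 and NCAPG in condensin I, NCAPD3 and NCAPG2 in condensin II. The complexes fold chromatin by extruding loops of DNA. Condensin II is found in the nucleus throughout the cell cycle and acts from early prophase, whereas condensin I reaches the chromosomes after the nuclear envelope breaks down, and several of the subunit genes are expressed most strongly in dividing cells.

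All 8 condensin genes were lower than the control in both siRNA libraries, and lower with siRNA 1 than with siRNA 2. With siRNA 1 every gene, by its brightest probe set, was at least 1.5-fold lower, a size reached by 6.16% of all 11286 measured genes, but NCAPH2 was at -0.45 on the log2 scale, short of 1.5-fold, when its probe sets were averaged. NCAPG and NCAPH were past 2-fold, which 1.76% of all measured genes were. With siRNA 2 the genes at least 1.5-fold lower were NCAPG and NCAPH, against 4.67% of all genes, so these 2 passed 1.5-fold in both libraries, as 1.52% of all genes did, and 0 of the 8 reached 2-fold, against 0.603%. The median log2 difference from the control over the 8 genes was -0.83 with siRNA 1 and -0.44 with siRNA 2, beside 0.00 and 0.01 over all measured genes. Being lower in both libraries by any amount was common, at 32.1% of all measured genes, and both differences use the same control array. In a culture measured as a whole, fewer cells in division and less RNA per cell cannot be told apart.

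Of the 26 probe sets, 21 were measured, meaning above an intensity of 26.0 on at least 1 array. This floor is the median of all values, and lower values were raised to it before the log2 scale was taken. The other 5, of which 2 belong to NCAPH and 3 to NCAPG2, stayed under 9 on every array and give no difference. All 21 measured probe sets were lower with both siRNAs, where 33.7% of all 23896 measured probe sets were. With siRNA 1, 4 of the 21 were 2-fold or more lower (1.5% of all measured probe sets) and 19 were 1.5-fold or more lower (5.65% of all). With siRNA 2 the counts were 1 (0.644% of all) and 3 (5.22% of all). Probe sets of a gene read the same RNA on the same array, so their spread describes the probes and not the cells.

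**Figure D1:**
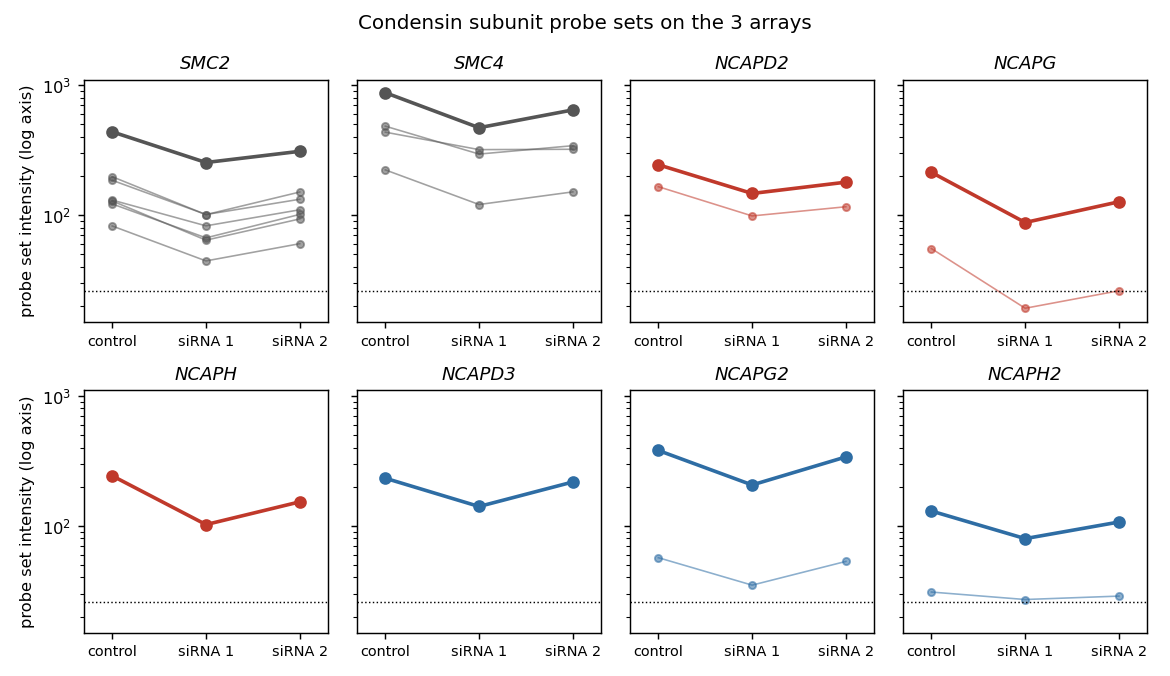
Intensity (log axis) of each measured condensin probe set on the control, siRNA 1 and siRNA 2 arrays, with a panel per gene. The thick line is the brightest probe set of the gene, thin lines are its other probe sets, colour marks the complex (grey for both, red for condensin I, blue for condensin II) and the dotted line is the floor of 26.0. The siRNA 1 point is the lowest of the brightest probe set in every panel.

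**Figure D2:**
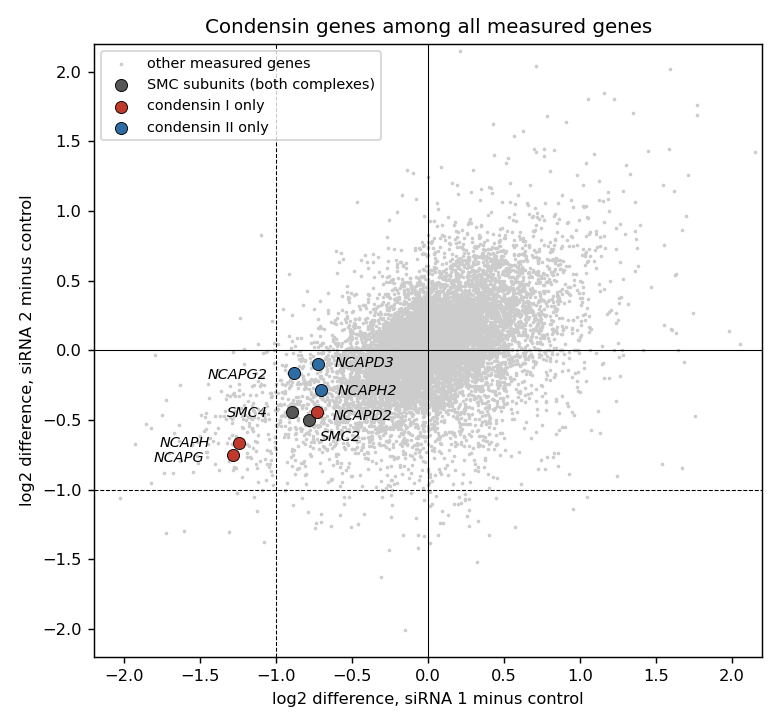
Log2 difference from the control with siRNA 1 (x axis) and siRNA 2 (y axis) for all 11286 measured genes in grey and the condensin genes in colour; 14 genes lie outside the plotted range. Dashed lines mark 2-fold lower; NCAPG and NCAPH lie left of the vertical dashed line at -1.28 and -1.25, and the condensin II genes lie nearest to 0 on the y axis.

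The sequence before the start of 4 genes is shown because the members moved in one direction and because these genes span the range of the data: NCAPG and NCAPH had the largest differences, NCAPD2 is the HEAT-repeat subunit beside them in condensin I, and NCAPD3 is its counterpart in condensin II. Each is the 250 bases before the RefSeq start site on GRCh38.p14, 5′ to 3′ on the gene's own strand, at chr4:17810729-17810978 (plus strand) for NCAPG, chr2:96335516-96335765 (plus) for NCAPH, chr12:6493852-6494101 (plus) for NCAPD2 and chr11:134223968-134224217 (minus) for NCAPD3. Capitals mark matches, on either strand, to a CCAAT box (CCAAT), to a CHR element (TTTGAA or TTCGAA) of the kind known from cell cycle promoters, or to an E2F-type site (TTCCCGC, or with other middle letters TTGGCGC, or TTCGCGC, or else TTGCCGC). The kinds of motif do not overlap in the printed stretches. NCAPD3 has another RefSeq start site, whose window holds no match to these motifs and is not printed.
NCAPG: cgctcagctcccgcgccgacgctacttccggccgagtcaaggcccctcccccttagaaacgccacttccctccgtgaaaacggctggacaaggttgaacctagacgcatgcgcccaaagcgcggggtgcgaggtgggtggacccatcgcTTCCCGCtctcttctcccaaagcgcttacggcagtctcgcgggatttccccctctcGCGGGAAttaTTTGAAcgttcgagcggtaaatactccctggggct
NCAPH: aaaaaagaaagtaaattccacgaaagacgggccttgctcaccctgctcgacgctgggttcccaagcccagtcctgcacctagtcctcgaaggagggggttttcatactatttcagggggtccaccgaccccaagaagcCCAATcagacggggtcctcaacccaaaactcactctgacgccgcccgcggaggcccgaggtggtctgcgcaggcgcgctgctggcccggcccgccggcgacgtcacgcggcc
NCAPD2: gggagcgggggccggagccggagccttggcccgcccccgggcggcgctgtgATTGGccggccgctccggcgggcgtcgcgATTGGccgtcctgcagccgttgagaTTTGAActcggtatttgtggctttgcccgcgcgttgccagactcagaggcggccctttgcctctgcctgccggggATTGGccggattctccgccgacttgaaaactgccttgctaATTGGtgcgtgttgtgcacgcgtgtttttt
NCAPD3: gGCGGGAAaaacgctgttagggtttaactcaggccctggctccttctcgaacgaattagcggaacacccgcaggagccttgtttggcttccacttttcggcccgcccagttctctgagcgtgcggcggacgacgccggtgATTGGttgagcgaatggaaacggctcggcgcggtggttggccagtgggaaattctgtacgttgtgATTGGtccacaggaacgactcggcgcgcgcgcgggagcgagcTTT

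RefSeq promoter windows of 300 bases, from 250 before the start to 50 after it, were held for 7 of the 8 genes, with 10 windows in all. A CHR element was found in 6 of the 10 windows, 1 in each of 6 genes, where 16.4% of all 35116 windows have at least 1. In NCAPG it lay from base -35 to -30, beside an E2F-type match from -45 to -39, with another E2F-type match from -101 to -95. In NCAPD3 the CHR letters ran from base -3 to 3 across the start, so the printed stretch ends in their first letters, and in NCAPG2 they ran from 36 to 41. E2F-type matches were found in 3 windows, of SMC4, NCAPG and NCAPD3, against 13.0% of all windows. A CCAAT box occurred in 3 of the 10 windows, close to the share of 34.6% over all windows. NCAPD2 had 4 of them, a number that 0.991% of all windows reach, while NCAPH had 1 and no match to the other motifs. These are matches of letters. They do not show that a factor binds there, and the arrays do not measure promoters.

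SMC2 and SMC4, the ATPase subunits common to both complexes, differed from the control by similar amounts. The brightest SMC2 probe set read 437 on the control array, 254 on the siRNA 1 array and 309 on the siRNA 2 array. It was 1.72-fold and 1.41-fold lower, or -0.78 and -0.50 on the log2 scale. The control was the highest and siRNA 1 the lowest array. The 6 other SMC2 probe sets kept this order and differed from the control by 1.58-fold to 2.00-fold, downward, with siRNA 1 and by -0.49 to -0.25 on the log2 scale with siRNA 2. The lowest of these, at 128 in the control and 64.1 with siRNA 1, lay on the edge of the 2-fold line. Over the 7 SMC2 probe sets the mean difference was -0.86 with an SD of 0.12 for siRNA 1 and -0.40 with an SD of 0.10 for siRNA 2 (SD over probe sets, not over samples).

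The brightest SMC4 probe set gave 875 for the control, 470 for siRNA 1 and 644 for siRNA 2. These intensities were 1.86-fold and 1.36-fold lower than the control. Log2 differences were -0.90 and -0.44. The 3 other SMC4 probe sets were lower as well, from -0.89 to -0.45 with siRNA 1 and from -0.56 to -0.44 with siRNA 2. In 1 of them, whose name ends in _x_at and which holds probes that may match other sequences, the siRNA libraries were nearly level, at 319 and 321 against 434 in the control. The siRNA 2 differences of SMC4 thus varied little between probe sets, with an SD of 0.06, while those of siRNA 1 had an SD of 0.21.

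Among the subunits found only in condensin I, the kleisin NCAPH and the HEAT-repeat subunit NCAPG had the largest differences of all members. NCAPG had an intensity of 213 in control cells, 87.6 after siRNA 1 and 127 after siRNA 2, which is 2.43-fold and 1.68-fold lower. Log2 differences were -1.28 and -0.75. With siRNA 1, 70 of the 11286 measured genes were as low as or lower than NCAPG, or 0.620%, and with siRNA 2 this was 239 genes, or 2.12%. The other NCAPG probe set was dimmer. It gave 55.2 on the control array, 19.2 on the siRNA 1 array, which is under the floor, and 26.2 on the siRNA 2 array, just above it. By this probe set NCAPG was at least 2.13-fold lower than the control after siRNA 1 and 2.11-fold lower after siRNA 2, the only member value past 2-fold in the siRNA 2 library.

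In the single measured probe set of NCAPH the control stood at 242, siRNA 1 at 102 and siRNA 2 at 153. It was 2.37-fold and 1.59-fold lower, with log2 differences of -1.25 and -0.67. As many as 83 genes were at or below this value with siRNA 1, and 366 with siRNA 2. Its other 2 probe sets lay between 5.08 and 5.73 on all arrays and so neither repeat nor contradict it.

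NCAPD2 differed less than its partners in condensin I. Its intensity was 244 for the control, 147 for siRNA 1 and 179 for siRNA 2, which is 1.66-fold and 1.36-fold lower. Its log2 differences of -0.73 and -0.45 were close to those of the other NCAPD2 probe set, at -0.75 and -0.51. NCAPD2 thus lay nearer to SMC2 and SMC4 than to NCAPG and NCAPH in both libraries.

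The subunits found only in condensin II were lower with siRNA 1 and differed less from the control with siRNA 2, by -0.28 to -0.10 on the log2 scale. NCAPD3, the HEAT-repeat counterpart of NCAPD2, stood at 232 in control cells, 141 after siRNA 1 and 217 after siRNA 2. Its log2 differences were -0.72 and -0.10. The value with siRNA 1 was 1.65-fold lower, whereas 34.2% of all measured genes were as low as NCAPD3 with siRNA 2. It had 1 probe set. For NCAPG2 and NCAPH2 the shares as low with siRNA 2 were 26.7% and 17.7%.

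NCAPG2, the counterpart of NCAPG, read 379.8, 206 and 339 in the control, siRNA 1 and siRNA 2 libraries by its brightest probe set, an _x_at one. These are intensities 1.84-fold and 1.12-fold below the control. Log2 differences were -0.88 and -0.17. A dimmer NCAPG2 probe set without that ending read 56.8, 34.9 and 53.2, differences of -0.70 and -0.10. Both probe sets placed the siRNA 2 array next to the control and the siRNA 1 array apart.

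The condensin II kleisin NCAPH2 had 129.8 for the control, 79.6 for siRNA 1 and 107 for siRNA 2. Log2 differences were -0.71 and -0.28, or 1.63-fold and 1.22-fold lower. Its other probe set was close to the floor, at 30.9, 27.1 and 28.7, and differed by -0.19 and -0.10. The NCAPH2 probe sets thus lay 0.51 apart with siRNA 1, the widest range of any member, and 0.18 apart with siRNA 2. RefSeq places NCAPH2 in overlap with its neighbour SCO2.

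**Figure D3:**
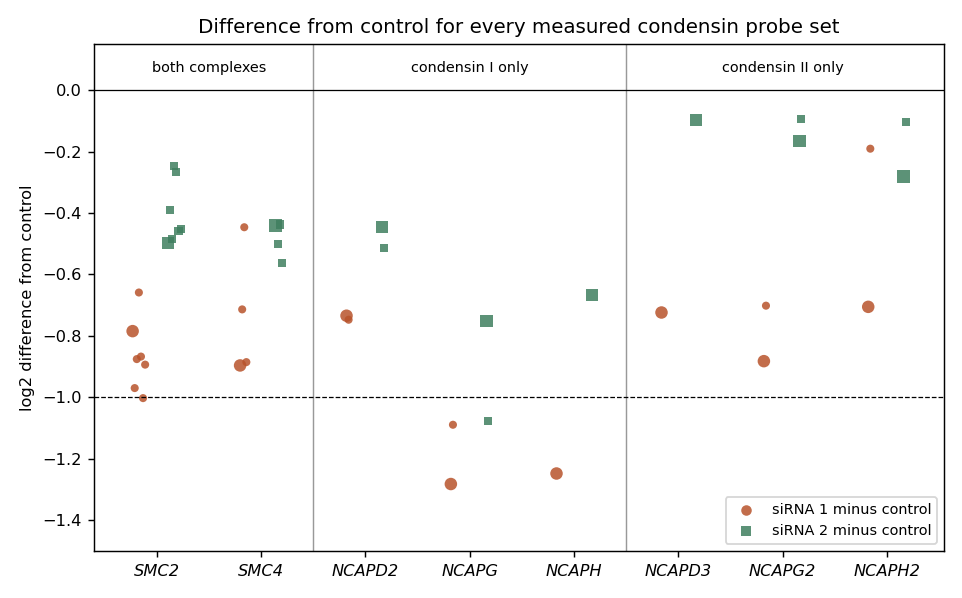
Log2 difference from the control for each of the 21 measured probe sets, by gene, with siRNA 1 as circles and siRNA 2 as squares; the larger symbol is the brightest probe set and the dashed line marks 2-fold lower. With siRNA 2 the condensin II probe sets lie between -0.28 and -0.10 and the condensin I probe sets between -1.08 and -0.45.

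Each counterpart pair had a smaller difference in condensin II than in condensin I in both libraries. With siRNA 1, however, NCAPD3 and NCAPD2 were nearly level, at -0.72 and -0.73. The median over the condensin I subunits was -1.25 with siRNA 1 and -0.67 with siRNA 2, over the condensin II subunits -0.72 and -0.17, and over the SMC subunits -0.84 and -0.47. With siRNA 2 the 5 measured condensin II probe sets lay between -0.28 and -0.10 and the 5 of condensin I between -1.08 and -0.45, while SMC2 probe sets reached into the range of NCAPH2. These probe sets come from 3 genes per complex on 1 array, and how often such groups lie apart over all genes was not counted. With siRNA 1 the groups overlapped, since NCAPG2 of condensin II at -0.88 lay below NCAPD2 of condensin I at -0.73. On the log2 scale the siRNA 2 difference was between 49.3% and 63.5% of the siRNA 1 difference for the SMC and condensin I genes. It was 13.3% for NCAPD3, 18.8% for NCAPG2 and 39.9% for NCAPH2. Whether the complexes differ could not be tested with 1 array per group. The 3 genes of each complex are not replicates of a condition, and both differences share the control array.

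Set directly against each other, the siRNA 2 library was higher than the siRNA 1 library for all 8 condensin genes and all 21 measured probe sets, where 53.1% of all measured genes and 49.3% of all measured probe sets were. The median gap over the genes was 0.49 on the log2 scale, beside 0.02 over all measured genes. NCAPG2 had the widest gap, 0.72, followed by NCAPD3 with 0.63 and NCAPH with 0.58. The narrowest were SMC2 and NCAPD2 with 0.29 each. NCAPG2 and NCAPD3, 2 of the 8 genes, passed 1.5-fold in this comparison, as did 4.87% of all measured genes, and NCAPH fell just short.

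The other genes of chromosome structure were taken from lists chosen by role, and the lists differed from each other. The list of proteins that regulate condensin or switch it on in mitosis held 15 measured genes, of which 11 were lower in both libraries, 7 were 2-fold or more lower with siRNA 1 and 0 with siRNA 2, with medians of -0.63 and -0.32. CCNB1, the mitotic cyclin that activates CDK1, read 845, 294 and 498 in the control, siRNA 1 and siRNA 2 libraries, log2 differences of -1.52 and -0.76. AURKB, the kinase of the chromosomal passenger complex that promotes condensin I loading, read 391, 123 and 259.6, differences of -1.67 and -0.59. PLK1, a mitotic kinase that phosphorylates condensin II, differed by -1.42 and -0.65, and by -1.42 and -0.83 in its other probe set. In the probe sets used, the protein kinase CK2 subunits of this list, also singled out by role, were within 1.5-fold of the control: CSNK2A1 differed by -0.08 and 0.24, CSNK2A2 by 0.19 and -0.25, and CSNK2B by -0.26 and -0.06. The 2 other CSNK2A2 probe sets differed by 0.40 to 0.66 with siRNA 1 and by -0.48 to -0.06 with siRNA 2. For CSNK2A1 the 2 others differed by -0.46 to -0.31 and by -0.03 to 0.10, and for CSNK2B the 4 others by -0.52 to -0.01 and by -0.18 to 0.17.

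Of 14 other mitotic chromosome proteins, 11 were lower in both libraries and 8 were 2-fold or more lower with siRNA 1, against 0 with siRNA 2, with medians of -1.10 and -0.46. CDCA8, a passenger complex subunit, differed by -1.83 and -0.95. The chromosome surface protein gene MKI67 read 232, 94.0 and 139 in the control, siRNA 1 and siRNA 2 libraries, differences of -1.30 and -0.74. Its 5 other probe sets spread from -1.53 to -0.87 and from -0.94 to -0.28. HJURP, the chaperone that deposits the centromeric histone CENPA, differed by -1.18 and -0.69. The type II topoisomerases, singled out by role after their values were seen, differed from each other: TOP2A, the form that works with condensin in mitosis, at -1.04 and -0.31, and TOP2B, which is also made in non-dividing cells, at -0.07 and 0.18.

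Cohesin, the related SMC complex that holds sister chromatids together, had a median near 0. Among 17 measured cohesin genes, 9 were lower and 6 higher in both libraries, 4 were 2-fold or more lower with siRNA 1 and 0 with siRNA 2, and the medians were -0.07 and -0.02. The 4 include SGO1, which protects centromeric cohesin, at -1.37 and -0.86, ESPL1, the separase that cuts cohesin, at -1.47 and -0.48, and the cohesin-stabilising factor CDCA5 at -1.35 and -0.47. A further CDCA5 probe set was at the floor with both siRNAs and so gives only a bound, -0.18 in each library. The ring itself, again singled out by role after its values were seen, was within 1.5-fold of the control in the probe sets used. SMC1A differed by -0.42 and -0.56, SMC3 by -0.13 and -0.49, and the kleisin RAD21 by 0.11 in each library. Further SMC1A probe sets ranged from -0.60 to -0.08 and from -0.89 to -0.08. Those of SMC3 ranged from -0.10 to 0.18 and from -0.52 to 0.13. Other RAD21 probe sets ranged from -0.38 to 0.01 and from -0.15 to 0.10, so the sign of RAD21 depended on the probe set.

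The 7 measured genes of SMC5/6, the third SMC complex and one with roles in DNA repair, and of other SMC proteins had medians of -0.09 and 0.08. In this list 3 genes were lower and 3 higher in both libraries and 0 were 2-fold lower in either. NSMCE1 differed by -0.46 and -0.42 and SMC5 by -0.40 and -0.47, but the 2 other SMC5 probe sets by -0.11 to 0.03 and 0.01 to 0.12. SMCHD1, a non-canonical SMC protein that acts in gene silencing, was higher, by 0.17 and 0.33.

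**Figure D4:**
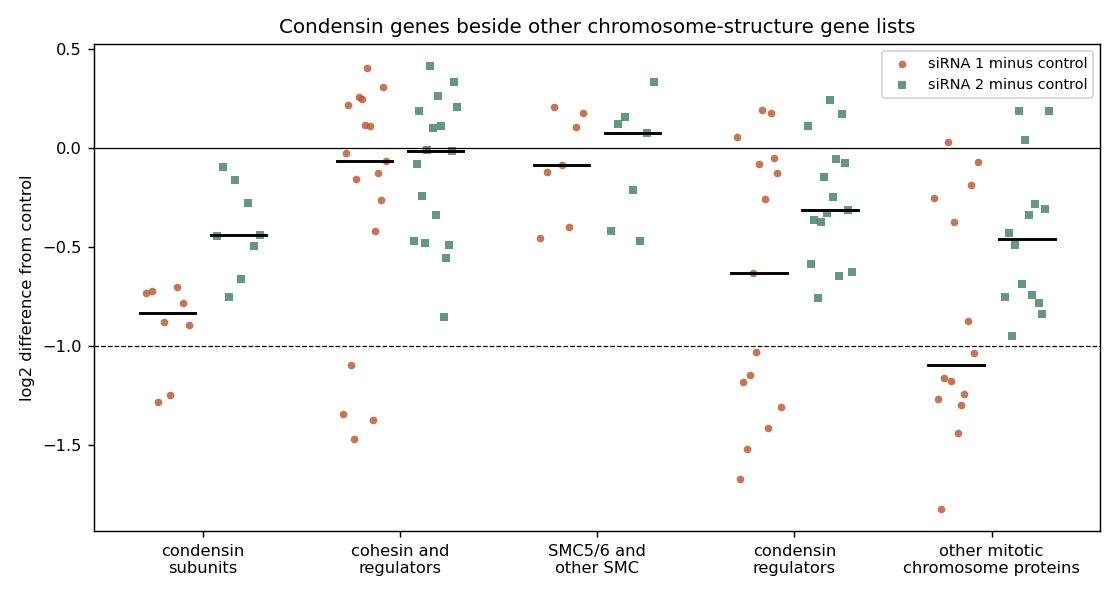
Log2 difference from the control for the measured genes of 5 lists, with siRNA 1 as circles and siRNA 2 as squares; the black bar is the list median and the dashed line marks 2-fold lower. The condensin genes all lie below 0, with medians of -0.83 and -0.44, while cohesin genes and the SMC5/6 list spread to both sides of it.

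The genes whose pair of differences was closest to the pair of condensin medians (-0.83 and -0.44) were sought over all measured genes outside the family. The measure was the straight-line distance between the pairs on the log2 scale, over 3 arrays that include the shared control. CHEK2, a kinase of the DNA damage checkpoint, came first with -0.83 and -0.42, at a distance of 0.028. RECQL4, a DNA helicase gene, followed with -0.87 and -0.42, and then the nucleoside transporter gene SLC29A1 with -0.87 and -0.46. DMBX1 (-0.83 and -0.40) and ALG1 (-0.81 and -0.41) completed the 5, both from control intensities of 46.3 and 45.4 that are not far above the floor, and with siRNA 1 values of 26.0, at the floor, and 24.2, under it, so that the ALG1 difference with siRNA 1 is a bound.

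By brightest probe sets, no measured neighbour of the condensin genes in the genome was as far below the control with siRNA 1 as any condensin gene. With the NCAPH2 probe sets averaged, at -0.45, the neighbours LCORL and SCO2 were lower than NCAPH2. The statement did not hold with siRNA 2. There DCAF16 at -0.58 and PTPRN2, beside NCAPG2, at -0.55 were lower than every condensin gene except NCAPG and NCAPH. RefSeq gave 16 nearest protein-coding neighbours, 1 on each side of each gene, and 12 of these were measured. Of the 12, 4 were lower and 3 higher in both libraries. Over all 11286 measured genes, 32.1% were lower and 3872 genes higher in both. None of the neighbours was 1.5-fold or more lower with either siRNA, against 6.16% of all genes with siRNA 1 and 4.67% with siRNA 2. With only 12 genes, the counts of lower neighbours thus lay near the shares over all genes. The neighbour medians were 0.11 and -0.16. IFT80, which encodes a ciliary transport protein and lies beside SMC4, read 207, 291 and 230.0 in the control, siRNA 1 and siRNA 2 libraries, a difference of 0.49 and 0.15. LCORL, which RefSeq places in overlap with NCAPG, differed by -0.57 and -0.27. DCAF16, on the other side of NCAPG, differed by -0.33 and -0.58, and its siRNA 2 value lay on the edge of the 1.5-fold line. SCO2, which overlaps NCAPH2, differed by -0.54 and -0.24, the nearest of the neighbours to the values of its own member. GAPDH, the glycolytic enzyme gene beside NCAPD2, differed by 0.25 and 0.31. Each neighbour was chosen by position alone.

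The arrays were alike in overall signal, with median intensities from 25.7 to 26.1 and between 49.9% and 50.1% of probe sets above the floor. Markers of luminal prostate cells were present on all arrays, with 10 of 13 listed genes given a probe set here and all 10 measured. Their summed intensity was 15023 on the control array, 16998 on the siRNA 1 array and 14177 on the siRNA 2 array, while their median log2 differences were 0.38 and 0.12. Of markers of other cell types, 4 of 5 leukocyte genes (PTPRC read 3.14 on every array), 4 of 6 stromal, 3 of 4 neuroendocrine, 2 of 4 basal and 5 of 7 genes of androgen receptor-negative prostate lines stayed under the floor on all arrays. The stromal sum moved, from 114 in the control to 161 and 228, through ACTA2, the smooth muscle actin gene, which differed by 1.16 and 1.85. Its part in the condensin differences was not tested. The luminal genes themselves moved unevenly. The 3 with the largest mean absolute difference were ACP3 at 1.22 and 1.80, TRPM8 at 1.13 and -0.59, and SLC45A3 at -0.91 and -0.56. The other TRPM8 probe set, at 0.18 and 0, did not repeat this pattern. Other ACP3 probe sets ranged from 0.34 to 1.19 and from 1.10 to 1.77, and the other SLC45A3 probe set was at -0.65 in each library.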

How the data were processed

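Transcripts were measured on 3 Affymetrix arrays of LNCaP cells, 1 per siRNA group, with groups taken from the title labels. The authors deposited linear intensities for 49388 probe sets. GCOS 1.4 is named by the submitters' processing notes, and how background, summarisation and normalization were handled is not given in the sources used here. Sorted log2 columns differed between arrays by 0.10 at the most, so the intensities were used as deposited. A general fall or rise of RNA would be hidden if the arrays were equalised before deposit.

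Intensities were raised to a floor at the 50th percentile of all values (26.0) and put on the log2 scale, and differences were taken from the control array. Symbols came from the platform annotation, and 44961 of 44988 probe sets with 1 symbol matched RefSeq through the Entrez identifier. A probe set or gene counted as measured with at least 1 array above the floor, and a gene is represented by its probe set of highest mean log2 intensity. A difference counted at 2-fold, beside the share of all measured genes or probe sets that reach it, with 1.5-fold as a second line. No p-value is given, because 1 array per group leaves no spread to test against, and arrays, not reads, limit the precision. All member genes are named, and their further measured probe sets are given singly or by range. From each other list the 3 genes with the largest mean absolute difference are named, with the 5 genes nearest to the members' median pair. The members and lists were chosen with earlier results of these data known. The computation used Python 3.11.15, pandas 2.3.3 and NumPy 2.4.6, and the difference calculation was tested on simulated data. Alternatives changed the floor, the scaling, the probe sets and the fold.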

Additional observations from a re-analysis of the deposited data

How the results depend on the processing

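No paired analysis was possible because each group holds 1 array, and for the same reason no replicate could be left out. In each of the 11 settings, the main one included, every measured condensin gene was lower with both siRNAs, though only plain probe sets left NCAPG and NCAPH2 alone. Several settings could not have changed this direction. Another fold moves only the line for a call. Other floor rules left every gene value as it was, because the brightest probe sets lay above the floor on all arrays. Only the scalings, the averaging and the choice of probe sets by name ending could move the gene values. The median over the genes ranged from -0.90 to -0.76 with siRNA 1 and from -0.68 to -0.43 with siRNA 2, and the median of all genes moved by under 0.1 between scalings. The counts depended on the fold. With siRNA 1, 8 genes and 19 probe sets passed 1.5-fold and 0 of either passed 3-fold. With probe sets averaged, NCAPH2 with siRNA 1 was at -0.45 and would not pass 1.5-fold. With siRNA 2, 2 genes and 3 probe sets passed 1.5-fold, and 0 probe sets passed 3-fold. With only plain probe sets, fewer probe sets were used, and 1 gene and 1 probe set passed 2-fold with siRNA 1 and 1 gene with siRNA 2, namely NCAPG at -1.08, its single value that crossed the 2-fold line. With only probe sets above the floor on all arrays, an alternative chosen after seeing the data, 0 probe sets passed 2-fold with siRNA 2, since the dim NCAPG probe set was left out. The condensin II median with siRNA 2 ranged from -0.28 to -0.10 and the condensin I median from -1.08 to -0.63. The ends at -0.28 and -1.08 come from only plain probe sets, where they are single probe sets of NCAPH2 and NCAPG and not medians. The other settings gave -0.17 to -0.10 for condensin II and -0.67 to -0.63 for condensin I. Of 162 values of single genes and of parts of the complexes under the alternatives, 160 stayed on their side of the 2-fold line. Many of the 162 could not cross it. Those under other floor rules equal the main values, and the condensin I and condensin II medians repeat values of single genes. The count is therefore not a measure of stability. Dim probe sets limit the NCAPG and NCAPH2 values most.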
